A study of Homo sapiens with 4 samples.

Results

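The MYC network is a small group of basic helix-loop-helix leucine zipper proteins, and its genes were examined here for chromatin binding by WDR5 and by SS18::SSX. The 10 genes were *MYC*, *MYCN*, *MYCL*, *MAX*, *MNT*, *MXD1*, *MXD3*, *MXD4*, *MXI1*, and *MLX*, of 20033 protein-coding genes in the GENCODE 44 annotation. They were taken by name, as members of the family, with earlier results of these data known. For each gene, the peaks that overlapped its body or the 10 kb on either side were taken from 4 peak lists. A peak counted as a promoter peak when its centre lay between 1000 bp upstream and 100 bp downstream of any annotated transcription start site of the gene.

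MYC, MYCN, and MYCL activate growth genes as heterodimers with MAX, on the E-box sequence. The MXD proteins, MXI1, and MNT compete for MAX and bring corepressors with histone deacetylases to the same sites, while MLX is the matching partner for the nutrient-sensing factors MLXIP (MondoA) and MLXIPL (ChREBP). WDR5 is a scaffold subunit of the MLL/KMT2 methyltransferases that write H3K4 methylation at promoters, and it also contacts MYC and helps it onto chromatin. SS18::SSX is the fusion oncoprotein of synovial sarcoma (SS), built into SWI/SNF chromatin-remodeling complexes.

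The lists came from CUT&RUN, in which an antibody brings micrococcal nuclease to a protein so that the chromatin around it is cut out and sequenced. All 4 libraries were of HSSY II, an established human SS cell line that carries SS18::SSX1. The cells were grown for 4 days with DMSO (mock) or with 2.5 μM MS67, a PROTAC that targets WDR5 for degradation, and each treatment was profiled with anti-WDR5 and with anti-SS18::SSX. Murine NIH-3T3 cells had been added to every library as a spike-in, as wild-type or H2B-GFP-expressing cells in the labels and as H2B-GFP-expressing cells in the study's methods, which add anti-GFP antibody to the SS18::SSX reactions. There was 1 library per condition from 1 cell line, so differences below rest on single libraries and carry no p-values. Intervals given below cover counting error only, at 95% confidence. The lists hold no measure of WDR5 or SS18::SSX protein, so the degradation itself was not checked here.

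The WDR5 lists held 35605 (DMSO) and 14123 (MS67) peaks, and the SS18::SSX lists held 15141 (DMSO) and 1175 (MS67). Genome-wide coverage, recovered from the peak statistics, was 0.368, 0.168, 0.541, and 0.737 fragments per bp in the same order. The WDR5 library with MS67 thus had 0.458 times the coverage of its DMSO counterpart, and the SS18::SSX library with MS67 had 1.36 times. The number of fragments stacked at each summit was recovered in the same way, and it is given below as fragments or, for comparison between libraries, divided by the coverage of its own library. Such a ratio holds no spike-in scaling, so a change common to the whole genome would not show in it.

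Stretches that lay under more than 1 of the peaks described below are shown here, on the plus strand of hg38, because they carry the binding that the comparisons turn on. The first pair was covered by WDR5 and by SS18::SSX with DMSO, and the other stretches were covered by WDR5 both with DMSO and with MS67. Capitals mark matches to an E-box (CACGTG), a GC box (GGGCGG, or CCGCCC on the other strand), and an NF-Y box (CCAAT, or ATTGG on the other strand). Matches of different motifs did not overlap in these stretches.
*MYCN*, chr2:15940925-15941121, in the gene and its antisense RNA gene: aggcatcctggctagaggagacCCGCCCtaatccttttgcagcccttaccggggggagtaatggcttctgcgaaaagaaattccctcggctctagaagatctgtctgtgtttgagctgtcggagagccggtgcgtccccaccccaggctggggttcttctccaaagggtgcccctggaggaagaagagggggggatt
*MXD4*, chr4:2262398-2262509, upstream of the start site: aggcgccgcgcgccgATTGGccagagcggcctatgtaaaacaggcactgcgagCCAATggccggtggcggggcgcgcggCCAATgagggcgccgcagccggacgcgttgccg
*MNT*, chr17:2397095-2397348, in an intron: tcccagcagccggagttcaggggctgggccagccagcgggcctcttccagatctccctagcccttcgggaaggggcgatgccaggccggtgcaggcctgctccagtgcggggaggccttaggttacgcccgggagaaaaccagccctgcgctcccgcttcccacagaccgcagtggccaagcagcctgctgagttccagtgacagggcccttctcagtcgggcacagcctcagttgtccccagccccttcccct
*MXD1*, chr2:69914350-69914625, in an intron upstream of the canonical start site: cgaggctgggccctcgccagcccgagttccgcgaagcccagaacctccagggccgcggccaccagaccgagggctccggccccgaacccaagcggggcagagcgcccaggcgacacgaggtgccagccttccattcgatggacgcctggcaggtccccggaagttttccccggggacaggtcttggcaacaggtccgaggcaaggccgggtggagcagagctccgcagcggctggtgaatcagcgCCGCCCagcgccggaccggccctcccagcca
*MLX*, chr17:42566638-42566841, upstream of the gene: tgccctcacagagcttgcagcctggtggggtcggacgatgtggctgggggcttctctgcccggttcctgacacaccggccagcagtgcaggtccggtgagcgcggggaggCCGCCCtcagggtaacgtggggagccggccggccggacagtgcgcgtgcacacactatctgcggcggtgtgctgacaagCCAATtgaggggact

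No E-box occurred in any of the 5 stretches. Windows of the same lengths at the centres of all WDR5 peaks with DMSO held an E-box in 2.36% to 5.85% of cases. The *MXD4* stretch held 3 NF-Y boxes, and 10.2% of windows of its length held at least 1. The *MYCN* stretch held 1 GC box, as did those of *MXD1* and *MLX*, against 23.5%, 29.7%, and 24.1% of windows of the respective lengths. The *MLX* stretch also held 1 NF-Y box, which 17.7% of windows of that length held. The *MNT* stretch held none of the 3 motifs. A match describes the letters and is not evidence of a factor on the site.

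With DMSO, WDR5 was found at every gene of the network. The windows of the 10 genes held 25 WDR5 peaks, and 9 of the genes had a WDR5 peak at a promoter, against 43.0% of all protein-coding genes. All 10 had at least 1 WDR5 peak in the window, against 75.0% of all genes. SS18::SSX peaks were fewer with DMSO: 7 peaks lay in the windows of 5 genes (*MYC*, *MYCN*, *MAX*, *MXD1*, and *MXD4*), where 31.8% of all genes had one. Each of the 5 had an SS18::SSX peak at a promoter, against 13.4% of all genes. The same 5 genes had promoter peaks of both proteins, against 9.34% of all genes. In both counts the peaks need not overlap. Promoter peaks of both proteins overlapped each other at *MYC* and *MXD4* but not at *MYCN*, *MAX*, and *MXD1*. The share of all genes with such an overlap was not taken. With MS67, WDR5 had 9 peaks, in the windows of 7 genes (54.1% of all genes) and at the promoters of 5 (27.7%). SS18::SSX with MS67 had no peak in any of the windows, where 3.63% of all genes had one in the window and 0.724% at a promoter.

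**Figure D1:**
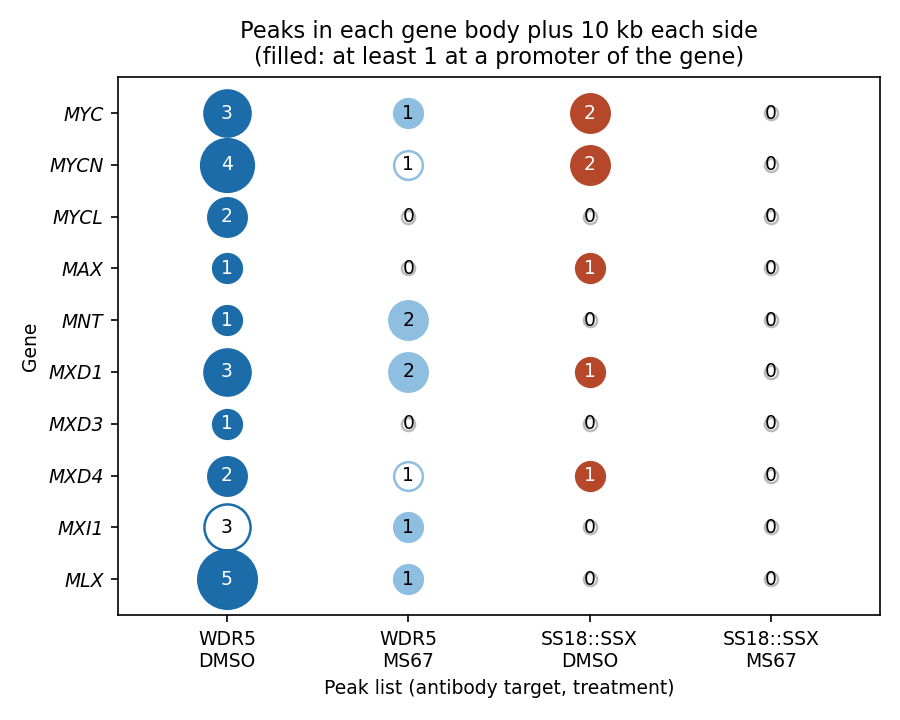
Number of peaks in each gene body plus 10 kb on either side (rows, genes; columns, the 4 peak lists). Circle area grows with the number printed in it, and a filled circle marks at least 1 peak at a promoter of that gene. WDR5 with DMSO has 1 to 5 peaks at each gene, and the SS18::SSX column with MS67 is 0 throughout.

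The windows summed to 491.521 kb. They held 5.09 WDR5 peaks per 100 kb with DMSO and 1.83 with MS67, against 1.85 and 0.778 over the windows of all protein-coding genes. For SS18::SSX with DMSO, the density was 1.42 peaks per 100 kb, against 0.718 over all windows. Such a density depends on gene length, since a short gene has its promoter in a short window, and it was not adjusted for this. Of the 25 WDR5 peaks with DMSO, 12 lay at a promoter of the network gene itself. Another 6 lay only at a promoter of another gene, and 7 at none. The network genes also had more annotated start sites than most genes, with a median of 8.5 against 5, which gives more places for a promoter peak. With only the 5′ end of each gene record as its start site, 6 of the 10 genes had a WDR5 promoter peak with DMSO (26.8% of all genes), 3 with MS67 (14.6%), and 1 an SS18::SSX promoter peak with DMSO (7.67%) but 0 with MS67 (0.384%). The share among the 10 genes was above that of all genes in each of these counts except the last, although 1 of 10 for SS18::SSX with DMSO was near the 7.67% of all genes. These counts describe 10 genes without a test.

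**Figure D2:**
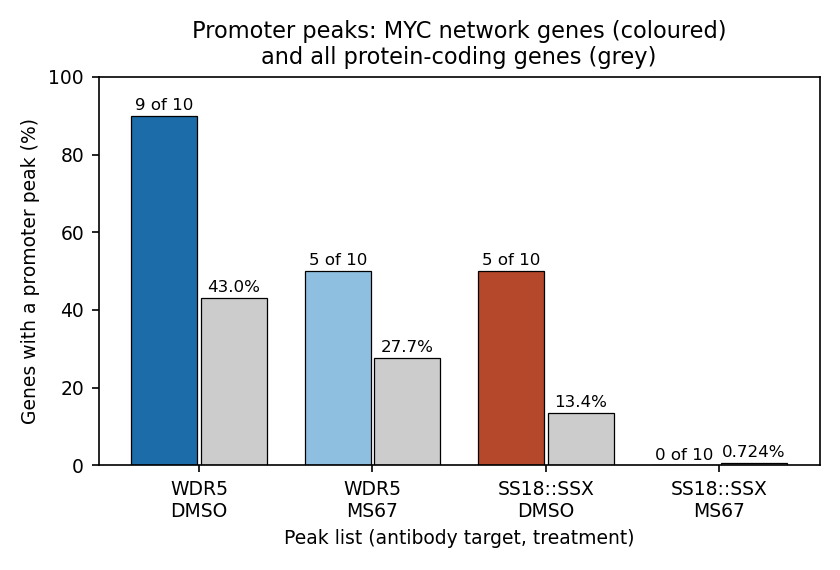
Share of genes with a promoter peak (%) in each peak list, for the 10 MYC network genes (coloured bars, with their number) and for all 20033 protein-coding genes (gray bars). The network genes stand at 9, 5, 5, and 0 of 10, beside 43.0%, 27.7%, 13.4%, and 0.724% of all genes.

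These WDR5 peaks were of moderate strength. Their fold enrichment over the local background ran from 3.20 to 5.75, and none of the 25 passed −log10 q above 3 with fold above 6, the study's own standard for comparing peaks between assays, which 18.1% of WDR5 peaks in the windows of protein-coding genes passed. At that standard no WDR5 peak with DMSO is left at any of the 10 genes. Of the 7 SS18::SSX peaks, 4 passed the corresponding −log10 q above 3 with fold above 3, against 54.1%. WDR5 summits at these genes held 9 to 28 fragments (median 16) with DMSO and 5 to 14 (median 9) with MS67, and SS18::SSX summits held 7 to 19 (median 11). Divided by coverage, the median summit was 43.5 for WDR5 with DMSO, and the median over the whole list was 35.4. The local background around the same peaks was also raised, at a median of 7.87 times the coverage against 4.91 over the whole list. For SS18::SSX, the median summit at these genes was 20.3 times the coverage, below the 29.6 of the whole list.

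*MYC*, the founding activator of the network, had the WDR5 summit with the most fragments of the 10 genes. The gene lies on the plus strand of chromosome 8 (127735434 to 127742951) and had 3 WDR5 peaks with DMSO, all counted as promoter peaks because the annotation gives it 14 start sites. The strongest (127735144 to 127735702) was centred 808 bp upstream of the canonical start site, with 28 fragments (18.6 to 40.5) and −log10 q 6.72. A second peak in the first exon (127736293 to 127736452) had 24 fragments, and another, 2487 bp downstream of the canonical start site (127738452 to 127738983), had 27. The 3 summits did not differ beyond counting error. The surroundings were dense as well: the local background reached 21.1 times the coverage, a level that 97.7% of the peaks in the list did not exceed.

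SS18::SSX had 2 peaks at *MYC* with DMSO. The first (127736285 to 127736472) held 19 fragments (11.4 to 29.7) with −log10 q 5.05, the highest of the 7 SS18::SSX peaks in the network. It covered the WDR5 peak in the first exon whole, and the summits of both proteins were 41 bp apart. The second (127737305 to 127737496) lay in an intron, with 17 fragments, 852 bp from the nearest WDR5 peak. With MS67, only the upstream WDR5 site was called, as a peak at 127735062 to 127735313 with 14 fragments (7.65 to 23.5). All of these sites also fall in *CASC11*, a long noncoding RNA gene that overlaps *MYC*, so the peaks cannot be assigned to 1 of the pair.

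*MYCN*, the neural paralog of *MYC*, had the most WDR5 peaks after *MLX*. Its 4 WDR5 peaks with DMSO lay within the gene (chromosome 2, 15940550 to 15947007, plus strand), in a row downstream of the start site. From 5′ to 3′, they held 22, 20, 20, and 18 fragments. The first (15940630 to 15941301) ran over the end of the first exon, and its centre lay 416 bp downstream of the canonical start site, outside the promoter as defined. The last (15943440 to 15943598) was the 1 counted as a promoter peak, at an internal start site of a transcript without a defined coding sequence. Thus, no WDR5 peak was centred in the promoter of the main start site.

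SS18::SSX had 2 peaks between and over the WDR5 peaks of *MYCN*. The first (15940925 to 15941121, the stretch printed above) held 11 fragments (5.49 to 19.7) and lay wholly within the first WDR5 peak. The second (15942931 to 15943191) held 14 fragments, 248 bp from the last WDR5 peak. It was the 1 counted as an SS18::SSX promoter peak, 496 bp upstream of an internal start site and 2512 bp downstream of the canonical one. With MS67, 1 WDR5 peak was called (15940631 to 15940801), with 13 fragments (6.92 to 22.2), inside the 5′ end of the first DMSO peak. It stopped 123 bp short of the SS18::SSX site. The 5′ part of *MYCN* is shared with *MYCNOS*, its antisense RNA gene, in which the first WDR5 peak of each treatment, the second WDR5 peak with DMSO, and the first SS18::SSX peak were centred.

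*MYCL*, the remaining activator (chromosome 1, 39895428 to 39902256, minus strand), had WDR5 peaks with DMSO only. The promoter peak (39902127 to 39902514) held 15 fragments (8.40 to 24.7) with −log10 q 3.47. Another peak 8632 bp downstream of the start site (39893070 to 39893500), past the end of the gene, held 12 fragments with −log10 q 2.92, the lowest value among the 25. The nearest SS18::SSX peak lay 103617 bp from them.

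*MAX* encodes the shared partner of the MYC and MXD proteins. Its window of 116.522 kb was the longest of the 10, yet it held 1 WDR5 peak and 1 SS18::SSX peak with DMSO and none with MS67. The WDR5 peak (chromosome 14, 65103499 to 65103759) was centred 1112 bp upstream of the canonical start site and held 9 fragments (4.12 to 17.1). The SS18::SSX peak (65102343 to 65102513) lay in the first exon, with 7 fragments (2.81 to 14.4). The peaks did not overlap and were 985 bp apart. These summits stood on the lowest local background of the network in their DMSO lists, at 2.39 times the coverage for WDR5 and 1.03 times for SS18::SSX, over which a call takes fewer fragments.

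**Figure D3:**
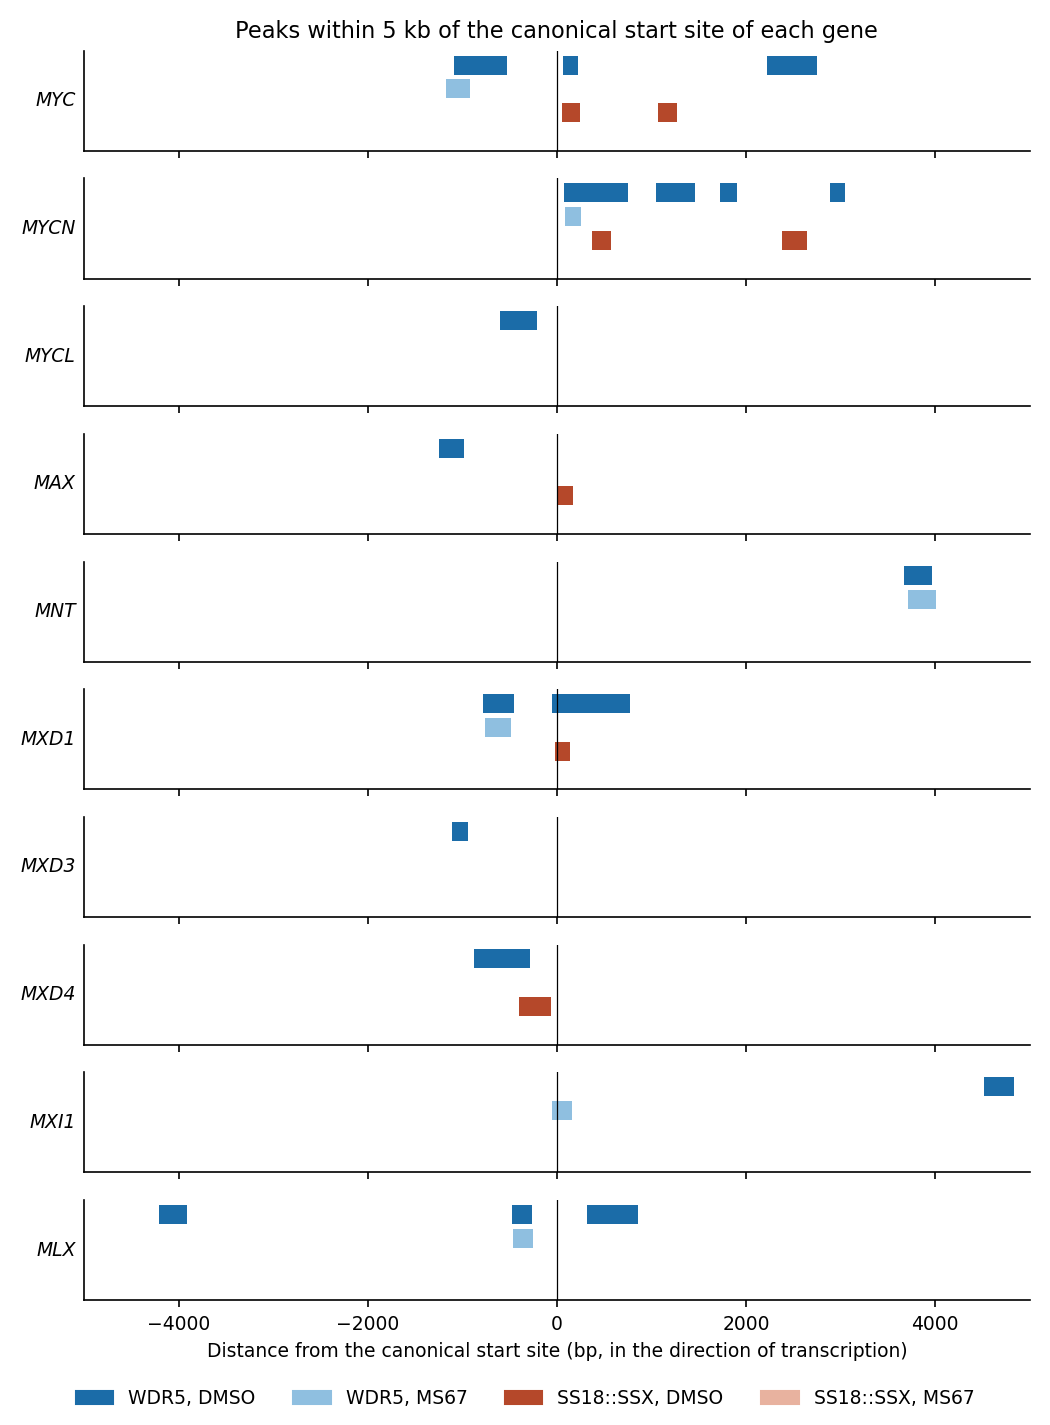
Peaks within 5 kb of the canonical start site of each gene, drawn to scale in the direction of transcription (x axis, distance in bp; the line marks the start site; colours, the 4 peak lists). WDR5 peaks of *MYCN* lie downstream of the start site, those of *MYCL*, *MAX*, *MXD3*, and *MXD4* upstream, and the *MNT* peaks inside the gene.

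Among the antagonists, *MNT*, the most widely expressed MAX-binding repressor, kept its WDR5 site with MS67, and *MXD1* kept a promoter site. With DMSO, the 1 WDR5 peak (chromosome 17, 2397095 to 2397386) lay in an intron, 3819 bp downstream of the canonical start site and 388 bp upstream of an internal one, with 21 fragments (13.0 to 32.1). With MS67, a peak at 2397049 to 2397348 covered most of it, with 11 fragments (5.49 to 19.7) and −log10 q 2.32, against 4.66 at the *MXD1* promoter. A further MS67 peak past the 3′ end of the gene (2383380 to 2383534) held 6 fragments and had no DMSO peak within 13560 bp. No SS18::SSX peak was called at *MNT*, and the nearest lay 342613 bp from the DMSO site.

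*MXD1* encodes a MAX partner that rises as cells leave the cycle and differentiate. It had 3 WDR5 peaks with DMSO and 2 with MS67. The promoter peak (chromosome 2, 69914324 to 69914653) held 12 fragments with DMSO, and the MS67 peak inside it (69914350 to 69914625) held 9. The strongest DMSO peak (69915054 to 69915880) spanned the canonical start site and ran into an intron, with 16 fragments (9.15 to 26.0) and −log10 q 6.33, and no MS67 peak overlapped it. SS18::SSX with DMSO had a peak of 7 fragments (69915084 to 69915247) within this broad WDR5 peak. A further WDR5 pair lay in the neighbouring gene *SNRNP27*, a splicing factor gene, with 11 fragments for DMSO (69894821 to 69895240) and 5 for MS67 (69894741 to 69895179).

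*MXD3*, whose product is linked to proliferating progenitors, had a single WDR5 peak with DMSO (chromosome 5, 177312839 to 177313004). It was centred 165 bp upstream of the nearest start site and held 12 fragments (6.20 to 21.0), with −log10 q 4.53. No other list had a peak in its window.

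*MXD4* had its strongest WDR5 peak with DMSO just upstream of the gene (chromosome 4, 2262398 to 2262982), with 16 fragments and −log10 q 6.72, a value close to that of the top *MYC* peak. SS18::SSX with DMSO overlapped it over 112 bp, the stretch printed above. The SS18::SSX peak (2262176 to 2262509) reached toward the start site and held 9 fragments (4.12 to 17.1), with the lowest −log10 q of the 7, at 1.86. The summits were 430 bp apart. No MS67 peak fell there. The other WDR5 peak in the window (2242238 to 2242547, 14 fragments) lay at promoters of *HAUS3* and *POLN*, and an MS67 peak of 6 fragments (2241757 to 2242020) lay 217 bp from it.

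*MXI1*, also called MXD2, was the 1 gene of the network with no WDR5 promoter peak in the DMSO list. Its 3 WDR5 peaks with DMSO lay in the gene (chromosome 10, 110212117 to 110212436, 110221755 to 110222461, and 110279016 to 110279529), with 23, 25, and 9 fragments. With MS67, none of these was overlapped, and the sole peak was at the canonical start site (110207554 to 110207769), with 13 fragments (6.92 to 22.2) and −log10 q 2.26. A WDR5 promoter peak with MS67 but none with DMSO was found for 6.25% of all protein-coding genes. Scaled to the DMSO coverage, the MS67 summit corresponds to 28.4 fragments (15.1 to 48.5). The smallest −log10 p in the DMSO list, 3.62, would be reached by 17 fragments over the MS67 background scaled the same way, and by 15 over the background of the nearest DMSO peak, 4347 bp away. The 28.4 fragments lie above both values, and the lower bound of 15.1 lies below 17 but above 15. Whether WDR5 at this promoter differed between the treatments was not tested. The local background at this MS67 peak was 17.9 times the coverage, which 96.9% of that list did not exceed.

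*MLX* (chromosome 17, 42567072 to 42573239, plus strand) had 5 WDR5 peaks with DMSO, the most of the 10 genes. A peak upstream of the start site (42566626 to 42566841) held 17 fragments (9.90 to 27.2), and a peak further into the gene (42567416 to 42567957) held 16. Only the upstream site was called with MS67, at 42566638 to 42566844 with 8 fragments (3.45 to 15.8). The other 3 peaks lay at neighbours, with 17 fragments at *COASY* (42562889 to 42563193) and with 11 and 10 at *PSMC3IP* (42577028 to 42577339, and 42577517 to 42577679). The nearest SS18::SSX peak lay 139913 bp from these sites.

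The overlap of both proteins was then compared across the network in mock-treated cells. WDR5 shared at least 1 bp with 4 of the 7 SS18::SSX peaks (57.1%), 1 each at *MYC*, *MYCN*, *MXD1*, and *MXD4*. Over the windows of all protein-coding genes the share was 36.0%. The other SS18::SSX peaks lay 248 to 985 bp from a WDR5 peak, so that all 7 had one within 1 kb. The share within 1 kb over all windows was not taken, so this count has no background beside it. At the 4 shared sites, WDR5 had 16 to 24 fragments and SS18::SSX had 7 to 19. WDR5 was called without SS18::SSX at *MYCL*, *MNT*, *MXD3*, *MXI1*, and *MLX*.

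MS67 and DMSO were next compared site by site. An MS67 peak overlapped 6 of the 25 WDR5 peaks (24%), against 27.2% in the windows of all protein-coding genes, so peak loss at the network genes was near the genome-wide level. The 6 sites were at *MYC*, *MYCN*, *MNT*, and *MLX*, with 2 at *MXD1*. By gene, 4 of the 9 with a WDR5 promoter peak with DMSO (*MYC*, *MNT*, *MXD1*, and *MLX*) had one with MS67, against 49.9% of all genes. Conversely, 3 of the 9 MS67 peaks (33.3%) had no DMSO counterpart, 1 each at *MNT*, *MXD4*, and *MXI1*, near the 33.9% over all windows.

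The lower coverage of the WDR5 library with MS67 moves with this loss. When each DMSO summit and its background were scaled to the MS67 coverage, 17 of the 25 peaks (68%) still passed the smallest −log10 p in the MS67 list, 4.06, against 60.6% over all windows. An MS67 peak was called at 6 of these 17, against 35.3% over all windows. The 11 peaks that passed but were not called included both remaining *MYC* peaks, the strongest *MXD1* and *MXD4* peaks, and the *MAX* and *MXD3* promoter peaks. The scaled counts were low, at 4.13 fragments for the *MAX* summit and 5.50 for that of *MXD3*. The 8 peaks that did not pass, among them both at *MYCL* and 3 at *MYCN*, fell short of that limit.

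At the 6 sites called in both lists, WDR5 summits per coverage did not differ beyond counting error. The ratio of MS67 to DMSO was 1.09 (0.531 to 2.14) at *MYC*, 1.29 (0.597 to 2.67) at *MYCN*, and 1.14 (0.498 to 2.48) at *MNT*. It was 1.64 (0.609 to 4.23) at the *MXD1* promoter, 0.992 (0.270 to 3.10) at *SNRNP27*, and 1.03 (0.383 to 2.51) at *MLX*. All 6 intervals held 1, and all were wide, since 5 to 14 fragments stood behind each MS67 summit. The median of the 6 was 1.12, against 1.27 (quartiles 0.992 to 1.64) over the 8897 WDR5 peaks of the whole list that an MS67 peak overlapped. Sites enter this comparison only when called in both libraries, so it leaves out those where the signal was lost.

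**Figure D4:**
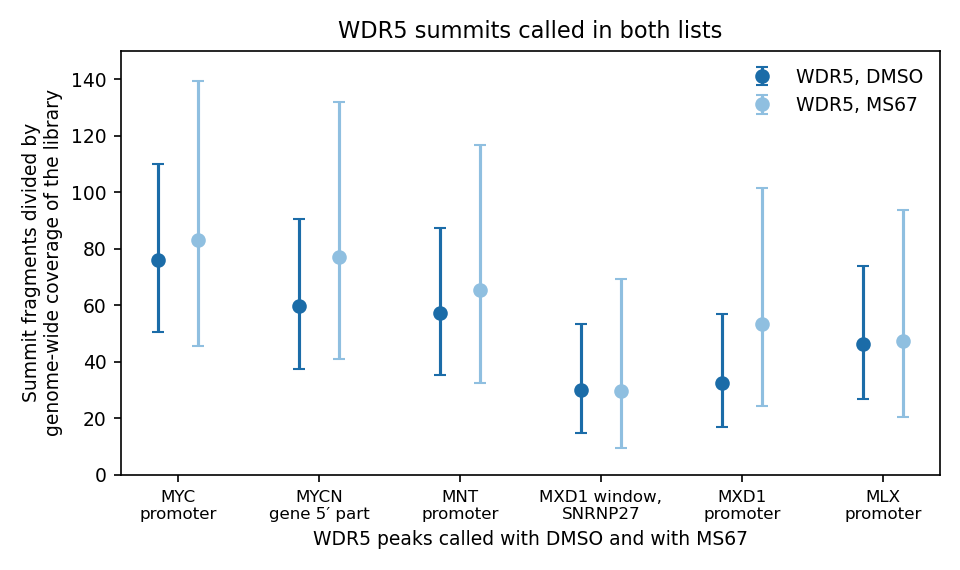
WDR5 summit fragments divided by the genome-wide coverage of the library (y axis) at the 6 sites called with DMSO (dark) and with MS67 (light); bars are exact Poisson intervals at 95% confidence and cover counting error only. The intervals of both treatments overlap at every site, with *MYC* the highest at 76.2 and 83.1.

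For SS18::SSX, none of the 7 peaks was overlapped by an MS67 peak, against 5.38% over all windows, and 0 of the 5 genes with a promoter peak with DMSO had one with MS67, against 4.10% of all such genes. The SS18::SSX library with MS67 had the higher coverage, and scaled up to it, all 7 passed its smallest −log10 p of 5.04, as did 99.6% over all windows, where 5.40% of those that passed were overlapped. The 2 *MYC* summits scale to 25.9 and 23.2 fragments and those of *MYCN* to 15.0 and 19.1, while *MAX*, *MXD1*, and *MXD4* scale to 9.54, 9.54, and 12.3. The nearest SS18::SSX peaks called with MS67 lay 632468 bp (*MXD4*) to 8544231 bp (*MAX*) from these 7 peaks. The distances over all genes were not taken. The absence of an overlap at all 7 was thus near the share over all genes, and it is not particular to the network.

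Genes that work with the network were examined as lists chosen by their role, 49 genes in all. With DMSO, 29 (59.2%) had a WDR5 promoter peak and 6 (12.2%) an SS18::SSX promoter peak, against the same 43.0% and 13.4% of all genes. With MS67, 26 (53.1%) had a WDR5 promoter peak, against 27.7% of all genes. Of the 29 bound with DMSO, 18 (62.1%) had one with MS67 too, against 49.9% of all genes, and 8 of the 49 had one with MS67 only, against 6.25%. None had an SS18::SSX promoter peak with MS67. Promoter peaks of both proteins with DMSO were found at 2 genes, *RUVBL2* and *TERT*, against 9.34% of all genes.

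All 3 genes of the extended network, *MGA*, *MLXIP*, and *MLXIPL*, had WDR5 promoter peaks with both treatments and none for SS18::SSX. Of all genes, 43.0% had a WDR5 promoter peak with DMSO, 27.7% had one with MS67, and 13.4% had an SS18::SSX promoter peak with DMSO. *MLXIPL*, encoding a glucose-responsive partner of MLX, had the most fragments of the 3 with DMSO (23) and held 9 with MS67, where *MLXIP* held 11. Of 16 cofactor genes, 8 had a WDR5 promoter peak with DMSO (43.0% of all genes) and 8 with MS67 (27.7%). Of the 8 with one with DMSO, 5 had one with MS67 too, against 49.9% of all such genes. The highest −log10 q with DMSO was 6.22 at *KAT5*, an acetyltransferase gene, followed by 5.65 at *HDAC2*, a deacetylase gene, and neither was called with MS67. *KAT2A* and *CDK9* were called with both treatments. SS18::SSX was at 2 of the 16 (13.4% of all genes), *RUVBL1* and *RUVBL2*, which encode paired ATPases, with 7 and 8 fragments. The gene of WDR5 itself, singled out after its values were seen, had a WDR5 promoter peak only with MS67, with 7 fragments and −log10 q 2.65.

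Among 10 genes for MYC turnover and stability, 6 had a WDR5 promoter peak with DMSO (43.0% of all genes) and 7 with MS67 (27.7%). *FBXW7*, which encodes the ubiquitin ligase subunit that marks MYC for destruction, had the highest −log10 q of the 49 genes, 13.8 with 19 fragments, and no promoter peak with MS67. *USP36*, *SKP2*, and *PPP2CA* followed with 8.80, 8.34, and 8.14, and each was also called with MS67. SS18::SSX was at 1 of these 10 genes (13.4% of all genes), *AURKA*, encoding a kinase that stabilizes MYCN, with 11 fragments and −log10 q 4.66. *AURKA* had no WDR5 promoter peak with DMSO but had one with MS67, of 16 fragments.

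Of 18 textbook MYC target genes, 11 had a WDR5 promoter peak with DMSO (43.0% of all genes) and 8 with MS67 (27.7%). Of the 11 with one with DMSO, 6 had one with MS67 too, against 49.9% of all such genes. *TFRC*, the transferrin receptor gene, led with −log10 q 8.48 with DMSO and 7.13 with MS67, while *LDHA*, a glycolytic gene, had 6.43 with DMSO and no peak with MS67. *NOP16* and *ODC1*, genes for ribosome assembly and polyamine synthesis, had 5.96 and 5.81 and were called with both. SS18::SSX was at 3 of the 18, *TERT*, *HSPD1*, and *CDK4*, near the 13.4% of all genes. The *TERT* peak, at the gene of the telomerase catalytic subunit, held 47 fragments with −log10 q 9.25, more than any SS18::SSX peak of the network genes themselves. Of the Mondo-MLX targets, *TXNIP* had a WDR5 promoter peak with DMSO (11 fragments) and none with MS67, and *ARRDC4* had none in any list.

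Promoter letters were searched last, in windows of 300 bases at start sites from RefSeq (GRCh38.p14). The table held 12 such windows for 9 of the 10 genes, with none for *MYC*, and 35116 in all. An E-box was present in 3 of the 12 (*MNT*, *MXD4*, and *MLX*), against 7.26% of all windows. A GC box was present in 11, against 45.0%, and an NF-Y box in 4 (*MXD1*, *MXD3*, *MXD4*, and *MLX*), against 34.6%. The windows of the network genes had a median GC content of 68.8%, against 58.7% of all windows.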

How the data were processed

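CUT&RUN of WDR5 and SS18::SSX in HSSY II cells was analysed from the peak lists of 4 libraries (DMSO or 2.5 μM MS67, 4 days, 1 library for each condition). The authors used Bowtie2 (version 2.4.4) to map reads to hg38 and to the mm10 spike-in genome. Nonprimary alignments were discarded with Samtools (version 1.10; the submitters' processing notes list 1.9), and PCR duplicates with Picard (version 2.18.2). They called peaks with MACS2 (version 2.2.6), 1 list per library. The MACS2 options and any control library are not given in the sources used here. Per peak, the authors deposited the −log10 p, the −log10 q, and the fold enrichment of the summit, which is a ratio to the local background. The deposited score is the whole-number part of 10 times the −log10 q and was not used.

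The fold and −log10 p together fix the summit pileup and the local background. Whole-number pileups matched 100% of peaks within 0.001 in −log10 p. The recovery step was also tested on simulated data. The lowest background of a list was taken as its coverage. MACS2 raises its background where reads are dense nearby, so a fold there understates the signal, and the number of peaks rises with depth. Intervals are exact Poisson for fragments and exact binomial for ratios. Fragments carry no molecular identifiers.

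Genes and start sites were those of GENCODE 44. Peaks overlapped when they shared at least 1 bp. Shares over all protein-coding genes, or over all peaks in their windows, stood as the background, and no test was run between conditions. The 10 genes and the wider lists were chosen with earlier results of these data known. All 10 genes are described, and of each wider list at most 4 genes per protein are named, by the highest −log10 q of a promoter peak with DMSO. *ARRDC4*, the *WDR5* gene, neighbouring genes, and the stretches covered by WDR5 with both treatments were added after their values were seen. No stretch that overlaps an untranslated region or exceeds 300 bases is printed, and none from chromosome 8. The alternatives were stricter peaks, other promoters and windows, merged peaks, overlap within 1 kb, and fold in place of fragments per coverage. Signals scaled to the spike-in were not used here. Python 3.11.15 with numpy 2.4.6, pandas 2.3.3, scipy 1.17.1, and matplotlib 3.10.9 was used.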

Additional observations from a re-analysis of the deposited data

How the results depend on the processing

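Of 45 alternatives for the counts, 27 stayed within 1.5 times the value reported. These 27 include every count of 0 for SS18::SSX with MS67, which could not change under the alternatives run. The ratios of MS67 to DMSO stayed within their counting intervals at all 6 sites when fold was used in place of fragments per coverage. Beyond the shares given above, none over all genes or windows was taken under these alternatives, so their counts stand without a background. Stricter peaks moved most counts. Under −log10 q above 3 with fold above 6 (WDR5) or 3 (SS18::SSX), a standard of the study, promoter peaks of WDR5 were left at 0 genes with DMSO and 1 with MS67, and those of SS18::SSX with DMSO at 3. WDR5 window peaks then numbered 0 with DMSO and 1 with MS67, and SS18::SSX window peaks 4 with DMSO, so 0 of 0 WDR5 peaks were overlapped by MS67 and 0 of 4 SS18::SSX peaks by WDR5. With −log10 q above 5, WDR5 promoter peaks were left at 3 genes with DMSO and 0 with MS67, and SS18::SSX promoter peaks at 1 with DMSO. With the start of the gene record alone, 3 genes had a WDR5 promoter peak with MS67 and 1 an SS18::SSX promoter peak with DMSO. With 50 kb on either side, WDR5 peaks rose to 46 with DMSO and 15 with MS67, with 10 of the 46 overlapped. Overlap within 1 kb raised the WDR5 peaks matched by MS67 to 11 of 25 and the SS18::SSX peaks matched by WDR5 to 7 of 7. The absence of SS18::SSX peaks with MS67 was not put to a test by the alternatives. The nearest such peak lay 304419 bp from any peak of the network genes, beyond the 50 kb windows, and the other alternatives could add no peak. No paired analysis was possible because each condition has 1 library. The WDR5 library with MS67 had 0.458 times the coverage of its DMSO counterpart, and intervals on its summits of 5 to 14 fragments are wide.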
